A study of Homo sapiens with 6 samples.

Results

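Of 536543 autosomal windows of 1 kb that could be scored, 2387 (0.445%) were partly methylated in every library of both cell states. A window was one of a fixed, non-overlapping grid on the human genome build GRCh37, and its level was the percentage of cytosine calls at CpG sites that were methylated. Windows with 30 or more calls in each of the 6 libraries were kept, and a kept window counted as intermediate in both states, and is called a member here, when its level lay between 30 and 70% in each of the 6 libraries. The levels themselves chose the members, so the levels of the members and the differences between the states at them are given as a description, without a test. Windows intermediate in all 3 Conventional libraries and not in all 3 Reset libraries numbered 16805 (3.13%), and those intermediate in all 3 Reset libraries and not in all 3 Conventional libraries numbered 238401 (44.4%).

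The libraries were whole-genome bisulfite sequencing of H9 cells, a human embryonic stem cell line in long use, grown on mouse embryonic fibroblast feeders in 5% oxygen. The 3 Conventional libraries came from H9 cells in serum replacement medium (20% KSR) with bFGF at 10 ng/ml. The 3 Reset libraries came from H9 cells in which doxycycline-inducible NANOG and KLF2 transgenes had been switched on (1 µM DOX), and which were then kept in t2iL+Gö, that is the GSK3 inhibitor CHIR99021 (1 µM), the MEK inhibitor PD0325901 (1 µM), Gö6983 (5 µM), which inhibits protein kinase C, and the cytokine LIF. The study calls the replicates biological. Every library is from this 1 line, and whether the 3 Reset libraries are separate resettings is not stated in the sources used here. The p-values therefore speak for these libraries only. They rest on the counting of calls and on a spread between libraries that the tests share over windows.

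In most human cells CpG sites outside CpG islands are methylated on nearly every copy and CpG islands at active promoters are free of methylation, so levels near the middle of the scale are uncommon. A middle level can come from alleles that differ, as at imprinted control regions, where the copy from 1 parent is methylated and the other is not, and where ZFP57 and other zinc finger proteins bind the methylated copy in the early embryo. It can also come from cells that differ, from CpGs of a window that differ from each other, or from the edge between a methylated and an unmethylated stretch. The deposited values are calls summed per cytosine and not per read, so methylated and unmethylated molecules of a window could not be sorted by allele or by cell.

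Libraries held 70329213 to 98004161 CpG calls, and the members had a median of 17.8 calls per CpG over the 6 libraries. The median member had 44 calls in its shallowest library, for which a level of 50% has an exact binomial 95% interval of 34.6 to 65.4%. At the minimum of 30 calls the interval is 31.3 to 68.7%, nearly the whole band. Reads carry no molecular identifiers and 1 read can give several calls, so such intervals cover counting error only. Over all kept windows the mean level was 83.4% ± 0.0767 (SD, n = 3) in Conventional and 33.9% ± 0.561 in Reset libraries, so each library lay on the side its label gives. The Reset libraries carried 1.43 ± 0.0190 times the Conventional coverage over the first 10 Mb of chromosome 7, and the 35 members that lie there are set apart below.

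Stretches of 300 bp from 5 members illustrate middle levels along the DNA. The 5 were picked by the evenness of their CpGs and not as typical members. Each is given on the plus strand of GRCh37, once with the Conventional and once with the Reset calls. Capitals mark CpGs at 20 to 80% methylation with 6 or more calls summed over the 3 libraries of the state, and a lower-case cg was outside that range or had too few calls. The stretch at chr7:130132669-130132968 lies in MEST, an imprinted gene expressed from the paternal copy, in a window that overlaps its promoter. With calls summed over the libraries of a state, all 19 CpGs with enough calls were in range in Conventional and 25 of 26 in Reset libraries. Over the stretch the single libraries were at 56.6, 40 and 47.1% in Conventional and 58.0, 19.3 and 43.3% in Reset libraries. Reset replicate 2 thus lay below 20% here, and summed calls do not show such a spread.
MEST, Conventional: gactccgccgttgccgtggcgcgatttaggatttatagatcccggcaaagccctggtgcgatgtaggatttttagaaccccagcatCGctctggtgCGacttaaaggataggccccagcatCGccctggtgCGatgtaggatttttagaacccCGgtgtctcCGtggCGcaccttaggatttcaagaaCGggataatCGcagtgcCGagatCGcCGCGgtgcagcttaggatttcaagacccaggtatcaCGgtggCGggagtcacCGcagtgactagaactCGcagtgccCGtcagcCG
MEST, Reset: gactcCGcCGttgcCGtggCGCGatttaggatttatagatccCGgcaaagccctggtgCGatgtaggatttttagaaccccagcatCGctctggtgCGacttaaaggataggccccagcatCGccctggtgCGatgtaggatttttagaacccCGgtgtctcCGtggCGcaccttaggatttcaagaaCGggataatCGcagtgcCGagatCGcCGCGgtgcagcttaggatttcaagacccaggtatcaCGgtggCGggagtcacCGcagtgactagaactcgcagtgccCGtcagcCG
The stretch at chr11:2833527-2833826 lies in an intron of KCNQ1, a potassium channel gene inside an imprinted domain. By summed calls, 11 of its 13 CpGs were in range in Conventional and 12 of 13 in Reset libraries. The single libraries were at 45.9, 31.6 and 52.7% over this stretch in Conventional and 44.2, 23.3 and 36.7% in Reset libraries. MEST and KCNQ1 are shown as the evenest members at listed imprinted genes that had a stretch free of exons with enough CpGs.
KCNQ1, Conventional: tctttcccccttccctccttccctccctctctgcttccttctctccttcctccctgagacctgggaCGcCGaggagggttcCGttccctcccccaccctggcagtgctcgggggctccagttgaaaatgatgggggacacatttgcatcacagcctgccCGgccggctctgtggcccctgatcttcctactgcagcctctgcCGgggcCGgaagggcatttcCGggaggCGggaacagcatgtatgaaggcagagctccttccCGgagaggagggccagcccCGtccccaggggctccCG
KCNQ1, Reset: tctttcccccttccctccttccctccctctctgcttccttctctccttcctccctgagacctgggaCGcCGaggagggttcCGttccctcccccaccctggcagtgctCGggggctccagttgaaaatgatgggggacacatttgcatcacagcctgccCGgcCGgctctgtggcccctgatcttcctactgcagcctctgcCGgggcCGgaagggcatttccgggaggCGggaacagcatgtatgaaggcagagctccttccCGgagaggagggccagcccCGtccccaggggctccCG
The stretch at chr7:929065-929364, in an intron of SUN1, a nuclear envelope gene, and in GET4, is shown because its window was among the evenest in both states and is at no gene of the imprinted list. All 13 of its CpGs were in range in both states.
SUN1 and GET4, Conventional: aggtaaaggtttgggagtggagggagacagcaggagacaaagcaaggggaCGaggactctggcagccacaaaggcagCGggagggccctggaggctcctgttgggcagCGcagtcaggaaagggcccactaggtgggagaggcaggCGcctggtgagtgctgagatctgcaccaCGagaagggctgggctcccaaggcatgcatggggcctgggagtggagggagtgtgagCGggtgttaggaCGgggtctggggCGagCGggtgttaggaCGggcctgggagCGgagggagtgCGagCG
SUN1 and GET4, Reset: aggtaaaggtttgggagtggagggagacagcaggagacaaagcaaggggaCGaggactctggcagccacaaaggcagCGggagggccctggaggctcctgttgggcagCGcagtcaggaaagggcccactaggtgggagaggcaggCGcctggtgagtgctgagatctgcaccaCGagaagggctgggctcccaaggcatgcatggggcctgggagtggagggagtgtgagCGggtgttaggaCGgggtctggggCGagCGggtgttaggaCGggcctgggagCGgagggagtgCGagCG
The last pair was chosen for uneven CpGs in Conventional and even ones in Reset libraries. By the index of dispersion explained below, the pair stood at 10.0 and 8.66 in Conventional libraries, against a median of 3.79 over all members. The pair shows CpGs at an end of the scale in Conventional libraries and in its middle in Reset libraries. At chr7:149551085-149551384 in ZNF862, a zinc finger gene, all 9 CpGs were over 80% in Conventional libraries and 7 of the 8 with enough calls were in range in Reset libraries. At chr22:44288001-44288300, which lies 108 bp from PNPLA5, a lipase family gene, all 16 CpGs with enough calls were under 20% in Conventional libraries and 13 of 15 were in range in Reset libraries. Each stretch is only part of its window, and the rest of the window brought the level of the whole into the band.
ZNF862, Conventional: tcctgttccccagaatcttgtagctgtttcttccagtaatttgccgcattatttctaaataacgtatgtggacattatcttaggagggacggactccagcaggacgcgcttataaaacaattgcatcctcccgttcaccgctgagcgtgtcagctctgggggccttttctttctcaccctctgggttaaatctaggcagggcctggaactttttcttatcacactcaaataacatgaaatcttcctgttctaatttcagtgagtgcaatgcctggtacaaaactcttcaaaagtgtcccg
ZNF862, Reset: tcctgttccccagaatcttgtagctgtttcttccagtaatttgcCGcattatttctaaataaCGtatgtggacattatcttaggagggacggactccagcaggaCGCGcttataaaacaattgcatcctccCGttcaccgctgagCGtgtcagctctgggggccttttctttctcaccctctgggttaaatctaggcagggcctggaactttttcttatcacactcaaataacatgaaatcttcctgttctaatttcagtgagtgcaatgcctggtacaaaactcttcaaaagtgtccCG
near PNPLA5, Conventional: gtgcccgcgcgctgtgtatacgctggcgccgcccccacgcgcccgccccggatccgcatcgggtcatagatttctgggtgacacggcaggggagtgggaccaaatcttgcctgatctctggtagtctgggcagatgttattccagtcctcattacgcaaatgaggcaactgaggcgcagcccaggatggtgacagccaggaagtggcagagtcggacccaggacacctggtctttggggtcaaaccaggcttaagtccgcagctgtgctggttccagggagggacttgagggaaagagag
near PNPLA5, Reset: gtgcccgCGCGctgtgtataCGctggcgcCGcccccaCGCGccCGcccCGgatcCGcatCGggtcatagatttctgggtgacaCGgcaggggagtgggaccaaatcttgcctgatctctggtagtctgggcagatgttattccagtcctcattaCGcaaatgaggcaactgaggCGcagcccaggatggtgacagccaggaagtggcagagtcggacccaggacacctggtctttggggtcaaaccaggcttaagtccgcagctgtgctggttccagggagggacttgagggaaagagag

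The members differed less between the states than other windows, as a band of 30 to 70% in both states requires. Their mean level was 54.0% ± 0.319 (SD, n = 3) in Conventional and 42.8% ± 0.517 in Reset libraries, with single libraries at 53.7 to 54.3% and 42.2 to 43.2%. The median difference, Reset minus Conventional, was -12.4 percentage points, against -51.3 points over all kept windows, -34.6 points over windows intermediate in Conventional only and -46.6 points over windows intermediate in Reset only. The mean level was lower in Reset libraries at 1990 members and higher at 397. It differed by at most 5 points at 457 members (19.1%), lay more than 20 points lower at 549 and more than 10 points higher at 69. All 3 Reset libraries lay below all 3 Conventional libraries at 1158 members (48.5%, where 94.8% of all kept windows did so), all 3 lay above at 66 (2.76%, against 1.26%), and at 1163 members the libraries of the states overlapped. The rule limits each of these counts, so the shares of all kept windows are printed beside them as background and nothing is read from the distance between them.

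Sorted by the Conventional level, the members had much the same median Reset level, which the rule holds at 30 to 70% in each group. The 165 members with a Conventional mean of 30 to 40% had a median difference of 5.41 points, the 590 at 40 to 50% of -3.69 points, the 950 at 50 to 60% of -13.2 points and the 682 at 60 to 70% of -21.5 points. The median Reset level was 41.8, 41.9, 42.0 and 41.7% in these 4 groups, so the differences follow largely from the sorting. All 6 libraries of 125 members (5.24%) lay between 40 and 60%. Of the windows just short of the rule, 3866 (0.721%) were in the band in 5 of 6 libraries. The 5 members nearest to a limit, with ties taken by position, had a library at exactly 30 or 70%, and the 5 nearest windows on the other side, among them windows in LHX3 and LMX1B, both homeobox genes, had a library at 29.9 or 70.1%.

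**Figure D1:**
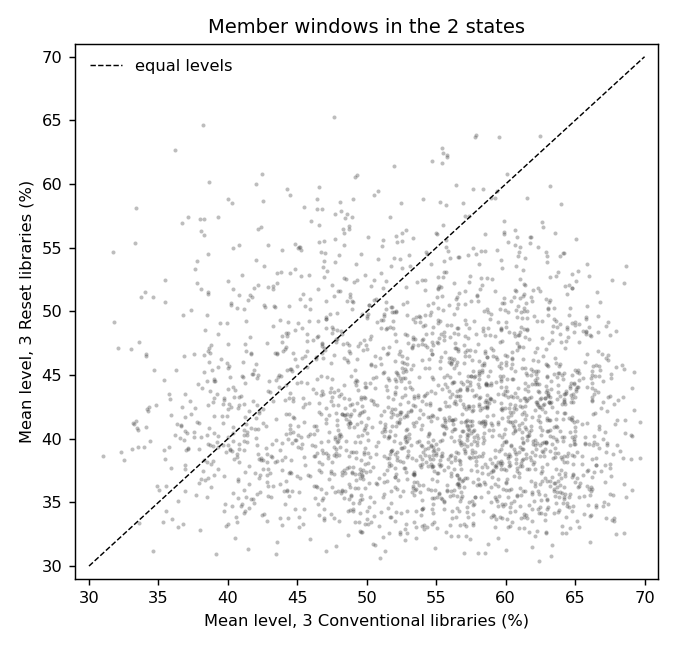
Mean methylation level of each of the 2387 members over the 3 Conventional libraries (x axis, %) and over the 3 Reset libraries (y axis, %), 1 point per window, with a dashed line of equal levels. The 1990 points below the line outnumber the 397 above it.

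Inside the members the CpGs differed more from each other in Conventional than in Reset cells. Evenness was measured by an index of dispersion, the chi-square of the methylated and unmethylated calls over the CpGs of a window divided by its degrees of freedom, with calls summed over the 3 libraries of a state. It would average 1 if the calls were independent and the CpGs of a window shared 1 level, but CpGs read together are not independent, and values under 1 occur. The median index of the members was 3.79 in Conventional and 1.71 in Reset libraries, and it was lower in Reset libraries at 2141 of 2384 members (89.8%), beside 47.4% of all kept windows. With the Conventional calls thinned at random to the Reset depth, which kept 88.5% of them, the median was 3.60 and the index was still higher than in Reset libraries at 2097 of 2384 members (88.0%). Over all kept windows the medians were 1.34 and 1.59, and over windows intermediate in Conventional only 5.78 and 2.02, with a lower index in Reset libraries at 95.1% of them. An index of 1.5 or less was found at 5.70% of members in Conventional and at 37.1% in Reset libraries, and an index over 5 at 30.6 and 1.47%. Over all kept windows these shares were 56 and 44.7%, and 11.5 and 0.528%. An index of 1.5 or less was found at 1.95 and 29.9% of windows intermediate in Conventional only. In windows intermediate in Reset only it was found at 64.7 and 43.8%. Differences between these shares were not tested.

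**Figure D2:**
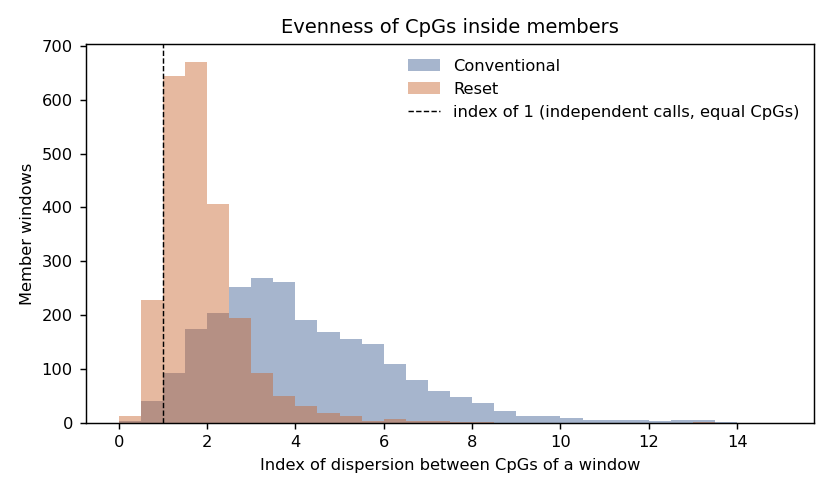
Histogram of the index of dispersion between the CpGs of a member (x axis, no unit) against the number of members (y axis), for Conventional and Reset libraries, with a dashed line at an index of 1, the average for independent calls at CpGs of equal level. The Reset histogram lies closer to the line and the Conventional one spreads far to the right, with 9 Conventional members at 15 or more lying beyond the axis.

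Many members had unequal parts in Conventional cells, as windows intermediate in Conventional only had too. Levels in the first and the last 500 bp of a member differed by a median of 34.3 points in Conventional and 10.7 points in Reset libraries, against 4.66 and 8.71 points over all kept windows. The Conventional difference was 43.7 points in windows intermediate in Conventional only. It was over 40 points at 981 of the 2359 members with enough calls in both parts (41.6%). The share was 55.3% in windows intermediate in Conventional only. Where both neighbouring windows of such a member were kept (378 members), the neighbour on the low side was the lower of the pair at 333 (88.1%), with median levels of 44.9% on the low side and 90.3% on the high side. In Reset libraries the same neighbours had median levels of 35.2 and 43.3%, and the low-side neighbour was the lower at 279 of 378. The plus and minus strands of a member differed by a median of 7.79 points in Conventional and 7.32 points in Reset libraries, much less than its 5′ and 3′ parts did in Conventional libraries.

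Single CpGs at both ends of the scale in Conventional cells were nearer to its middle in Reset cells. Of 35572 CpGs in members with 6 or more calls in each state, 6210 (17.5%) were under 20% in Conventional libraries, 19960 (56.1%) at 20 to 80% and 9402 (26.4%) over 80%. The methylated share of calls at the first of these classes was 7.91% ± 0.216 (SD, n = 3) in Conventional and 31.4% ± 0.428 in Reset libraries. The same CpG class was at 5.87 and 5.61% in windows intermediate in Conventional only, at 3.77 and 28% in windows intermediate in Reset only, and at 2.64 and 5.72% over all kept windows. The CpGs over 80% were at 91.9% ± 0.0694 and 50.5% ± 1.01 in members, against 92.1 and 26.7% in windows intermediate in Conventional only and 95.1 and 46.6% in those intermediate in Reset only. The middle class was at 51.4% ± 0.357 and 42.1% ± 0.329 in members. The classes were cut on the Conventional calls, and the rule holds the Reset level of the whole window at 30 to 70%, so these values are a description of how the members met the rule.

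**Figure D3:**
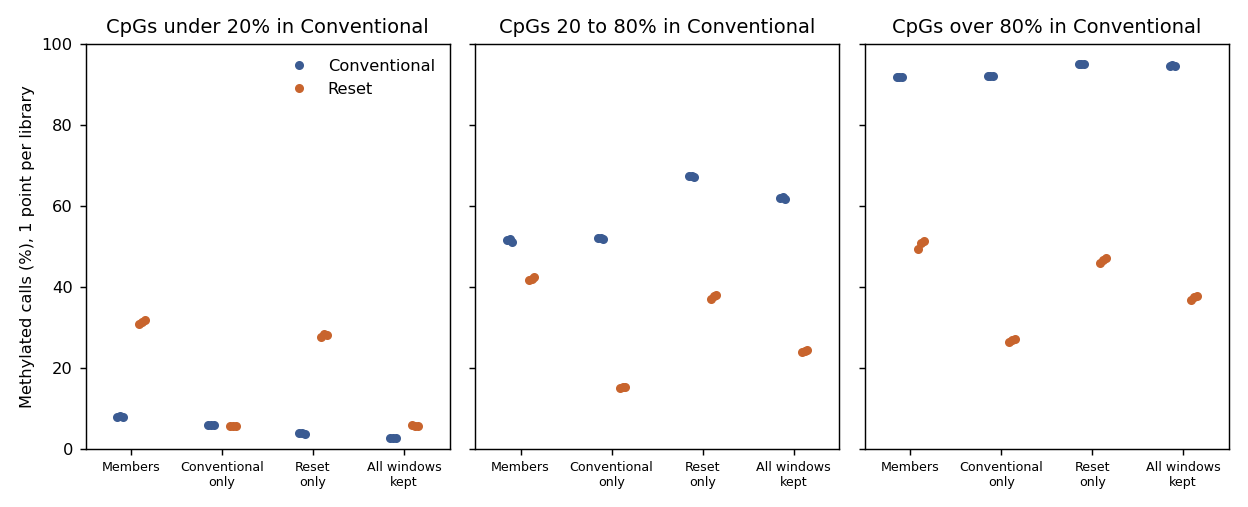
Methylated calls (y axis, %) at single CpGs grouped by their Conventional level (under 20%, 20 to 80%, over 80%, 1 panel each), for members, windows intermediate in Conventional only, windows intermediate in Reset only and all kept windows (x axis), 1 point per library. CpGs under 20% in Conventional libraries stand at 31.4% in the Reset libraries in members, at 28% in windows intermediate in Reset only and at 5.61% in windows intermediate in Conventional only.

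The windows around the members were not used to choose them, apart from the exclusion of other members, and could be tested. In Conventional libraries members sat in a dip: the mean level was 54.0% in the members, 64.3 and 63.5% in the windows just before and just after them, 73.0 and 72.5% at a distance of 2 kb and 80.6 and 79.3% at 10 kb. In Reset libraries there was a small peak in place of the dip, with 42.8% in the members, 37.4 and 37.2% beside them and 37.6 and 36.7% at 10 kb. Both the dip and the peak at distance 0 are set in part by the rule, which held the members, and not their neighbours, at 30 to 70%.

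**Figure D4:**
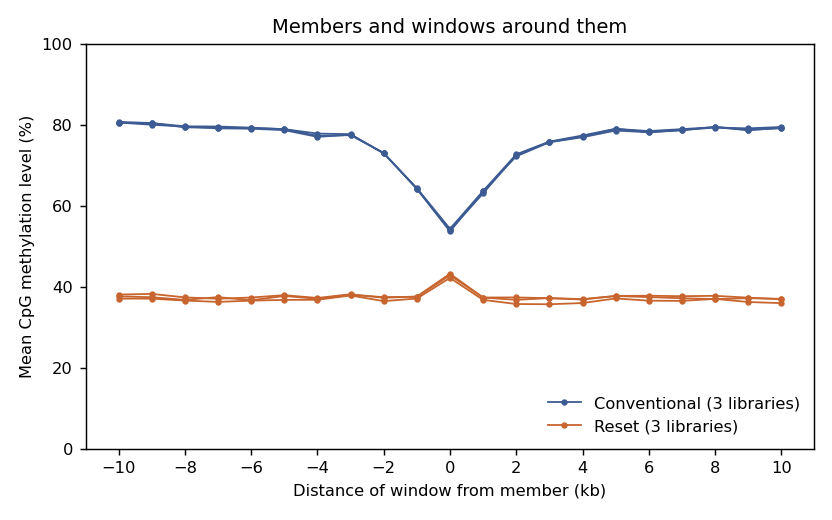
Mean methylation level (y axis, %) of members (distance 0) and of the kept windows at 1 to 10 kb on either side (x axis, kb), 1 line per library. The 3 Conventional lines dip from about 80.6% at -10 kb to 54.0% at the members, and the 3 Reset lines run near 37.6% and reach 42.8% at the members.

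A quasi-binomial logistic model with Benjamini-Hochberg adjustment over all 536543 windows, at an adjusted p of 0.05, was read for the 2647 non-member windows that touch a member. Of these, 1953 (73.8%) fell in Reset libraries, 381 (14.4%) rose and 313 (11.8%) did not pass the test, where 95.1% of all kept windows fell and 1.29% rose. The median difference was -35.2 points. The windows that rose were nearly all low in Conventional cells. Of the 605 neighbours under 30% in Conventional libraries, 362 (59.8%) rose and 39 fell, with medians of 8.42% in Conventional and 20.5% in Reset libraries, whereas 19.1% of the 35470 kept windows under 30% rose and 33.9% fell. Of the 429 neighbours at 30 to 70%, 304 fell and 19 rose, from a median of 56.5 to one of 33.2%, beside background shares of 90.5 and 0.494%. Of the 1613 neighbours over 70%, 1610 fell and 0 rose, from a median of 88.5 to one of 43.8%, where 469824 of 469881 kept windows of that class fell.

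The gain at low neighbours was also seen within CpG-rich DNA. A long CpG-dense stretch is a run of at least 500 bp with a GC content of 55% or more and a ratio of observed to expected CpG of 0.65 or more. Of the low neighbours that hold part of such a stretch, 259 of 433 (59.8%) rose, with a median of 5.94% in Conventional and 15.2% in Reset libraries. Of all kept windows of this kind 17.7% rose, and their medians were 4.17 and 2.37%. Of the low neighbours without such a stretch, 103 of 172 rose, from a median of 17.8 to one of 30.7%, beside 26.9% of all such windows. The difference between neighbours and all low windows was not itself tested, and members had been chosen for a Reset level of 30% or more, which a neighbour on the same stretch may share.

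Total calls per window were compared by edgeR's quasi-likelihood test with Benjamini-Hochberg adjustment, which called 0 of 2387 members, where 0.00391% of all kept windows had lower and 0.017% higher coverage in Reset libraries. At an unadjusted p under 0.05, 169 members (7.08%) passed, beside 7.83% of all kept windows, and DESeq2 called 1 member lower and 1 higher, beside 0.0082 and 0.0768% of all kept windows. Without Reset replicate 1 the edgeR test called 2 members higher, beside 0.0367% of all kept windows. Without Conventional replicate 1 it called 1 higher, beside 0.0145%, without Conventional replicate 2 also 1, beside 0.00634%, and with each of the other 3 libraries left out in turn it called 0. The lowest adjusted p of a member by edgeR was 0.0752. The log2 ratio of coverage, Reset to Conventional, had a median of -0.02 over members, and its 5th and 95th percentiles were -0.45 and 0.44. Members in the first 10 Mb of chromosome 7 had 1.46 ± 0.0460 (SD, n = 3) times the Conventional coverage in the Reset libraries and a median level difference of -7.58 points, against -12.4 points for the other 2352. They made up 5.96 of every 1000 kept windows there and 4.43 of every 1000 elsewhere. The part of the extra coverage in these values was not tested. With 0 of the members in these 10 Mb called, the edgeR test does not show equal coverage of members.

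Members were richer in CpG and GC than the average window. A member had a median of 21 CpGs and a GC content of 52.1%, against 17 CpGs and 46.6% over all kept windows. A long CpG-dense stretch reached into 514 members (21.5%), against 11.3% of all kept windows, 29% of those intermediate in Conventional only and 5.36% of those intermediate in Reset only. The median difference between the states was -7.02 points at these 514 members and -13.5 points at the other 1873. Promoters of protein-coding genes overlapped 187 members (7.83%, against 6.02% of all kept windows). Promoters of lncRNA genes, whose transcripts encode no protein, overlapped 163 (6.83%, against 3.73%). Both shares were higher in windows intermediate in Conventional only, at 17.0 and 7.83%, and lower in those intermediate in Reset only, at 1.32 and 2.37%. Exons overlapped 22.8% of members and 22.7% of all kept windows, 43.0% of members were intronic against 47.5%, and 28.5% lay between genes against 26.9%. Within 1 Mb of a chromosome end lay 6.66% of members and 3.52% of all kept windows. The share was 4.16% in windows intermediate in Conventional only and 4.28% in those intermediate in Reset only. Chromosome 19 had 2.91 members per 1000 kept windows, the fewest, and chromosome 21 had 6.77, the most. No test of these shares was made.

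The hexamer TGCCGC, which ZFP57 binds when its CpG is methylated, was searched on both strands. It occurred in 585 members (24.5%) and in 15.7% of all kept windows. Windows with more CpGs hold it more often, so the shares were also taken by the number of CpGs: 16.2% of members and 10.2% of all kept windows with 11 to 20 CpGs held it, 28.2 and 20.8% of those with 21 to 40 CpGs, and 51.7 and 51.7% of those with 41 or more. In windows intermediate in Conventional only these shares were 12.6, 24.5 and 41.3%. A match is a match of letters and does not show binding.

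A small number of windows at imprinted genes were members, and the CpGs of some of them were even in Conventional cells. Of 69 imprinted genes listed, 64 were found in the annotation, and 19 of their 2239 kept windows (0.849%) were members, beside 0.445% of all kept windows. At the same genes 92 windows (4.11%) were intermediate in Conventional only and 1212 (54.1%) in Reset only. The 19 members lay at 19 listed genes in all, since some windows touch several genes. Among the listed genes without a member were H19, KCNQ1OT1, IGF2R, GRB10 and PEG3. Of the 19, 6 had a higher mean in Reset libraries and 13 a lower one, with all 3 Reset libraries below all 3 Conventional libraries at 7 (48.5% of all members and 94.8% of all kept windows lay so). The variance between the libraries of a state was a mean of 3.92 times the binomial variance of independent calls in Conventional and 2.52 times in Reset libraries at these members, against 1.44 and 1.23 over all members, whose medians were 0.877 and 0.773. Calls from 1 read are not independent, which can raise such a ratio where CpGs are dense, and its part in these values was not tested. Other sets, each holding some of these 19 members, also had ratios above those of all members. They were 3.98 and 2.75 at the 54 members with 41 or more CpGs and an index of dispersion of 1.5 or less in Conventional libraries. At the members with a long CpG-dense stretch they were 2.13 and 1.71. Ratios with the imprinted members left out were not computed.

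Of these 19 members, 8 had an index of dispersion of 1.5 or less in Conventional libraries. All 8 held part of a long CpG-dense stretch, and they had 34 to 94 CpGs. They lay at DIRAS3, PLAGL1, MEST, PEG13 and ZNF597 and, with 3 windows, at GNAS. Their index ran from 0.491 to 1.40 in Conventional libraries and from 0.823 to 2.79 in Reset ones, and was lower in the latter at 0 of 8. The other 11 had an index of 1.85 to 7.84 in Conventional libraries, lower in Reset libraries at 10 of 11. The split was made on the Conventional calls, and 8 windows chosen for a low index there leave little room for a lower one, so this is a description.

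The MEST window (chr7:130132001-130133000, 80 CpGs), whose stretch is printed above, was at 51.7, 52.8 and 36.5% in the Conventional and 52.2, 37 and 51.6% in the Reset libraries. The state means were the same to within 1 point, and the libraries within each state lay farther apart than the states. The DIRAS3 promoter window (chr1:68516001-68517000), at an imprinted gene for a Ras-related GTPase, was at 41.5, 46.2 and 33.1% in Conventional and 64.2, 44.1 and 67.3% in Reset libraries. Its states overlapped. The PLAGL1 and HYMAI window (chr6:144328001-144329000), which overlaps the promoter of a zinc finger transcription factor gene, was at 47.8, 52.7 and 45.8% against 34.3, 33.8 and 37.6%, with all Reset libraries below all Conventional ones. The ZNF597 and NAA60 promoter window (chr16:3493001-3494000, 61 CpGs) was at 30.7, 37 and 55.4% against 52.4, 41.4 and 64.9%.

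GNAS, which encodes the stimulatory G protein alpha subunit and has several imprinted promoters, held 4 members. The first 3 (chr20:57426001-57427000, chr20:57429001-57430000 and chr20:57430001-57431000) had means of 46.6% ± 13.2, 52.7% ± 14.1 and 49.6% ± 11.8 (SD, n = 3) in Conventional and 56.8% ± 3.15, 32.9% ± 4.27 and 43.2% ± 4.11 in Reset libraries. Conventional replicate 3 was the lowest Conventional library at each of these 3, as at 11 of the 19 imprinted members in all, against 36.1% of all 2387 members. The fourth (chr20:57471001-57472000, 20 CpGs) was at 60.7% ± 7.24 and 40.6% ± 5.37. KCNQ1 held 3 intronic members, at 48.1% ± 12.7, 58.6% ± 7.59 and 52.2% ± 8.33 in Conventional and 58.6% ± 10.5, 44.2% ± 2.07 and 55.4% ± 10.5 in Reset libraries. Only the middle one (chr11:2833001-2834000), part of which is printed above, had every Reset library (41.9 to 46.0%) below every Conventional one (50 to 64.5%).

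At the chromosome 15 imprinted region a window in NDN, which encodes necdin (chr15:23931001-23932000), was at 42.1% ± 3.32 and 38.8% ± 10.4, and a window inside SNRPN and SNURF (chr15:25204001-25205000, 11 CpGs) at 63.0% ± 4.07 and 41.6% ± 3.79. At the chromosome 14 region a window in the lncRNA gene MEG3 (chr14:101306001-101307000) was at 56.9% ± 10.7 and 58.5% ± 3.81, and a window overlapping the promoter of RTL1, a gene derived from a retrotransposon (chr14:101369001-101370000), at 58.1% ± 3.69 and 36.5% ± 6.60. The ZIM2 window (chr19:57285001-57286000, 9 CpGs) had the largest difference of the 19 members, from 64.9% ± 3.14 to 39.8% ± 3.23. The remaining members lay at PEG13, TRAPPC9 and ATP10A.

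**Figure D5:**
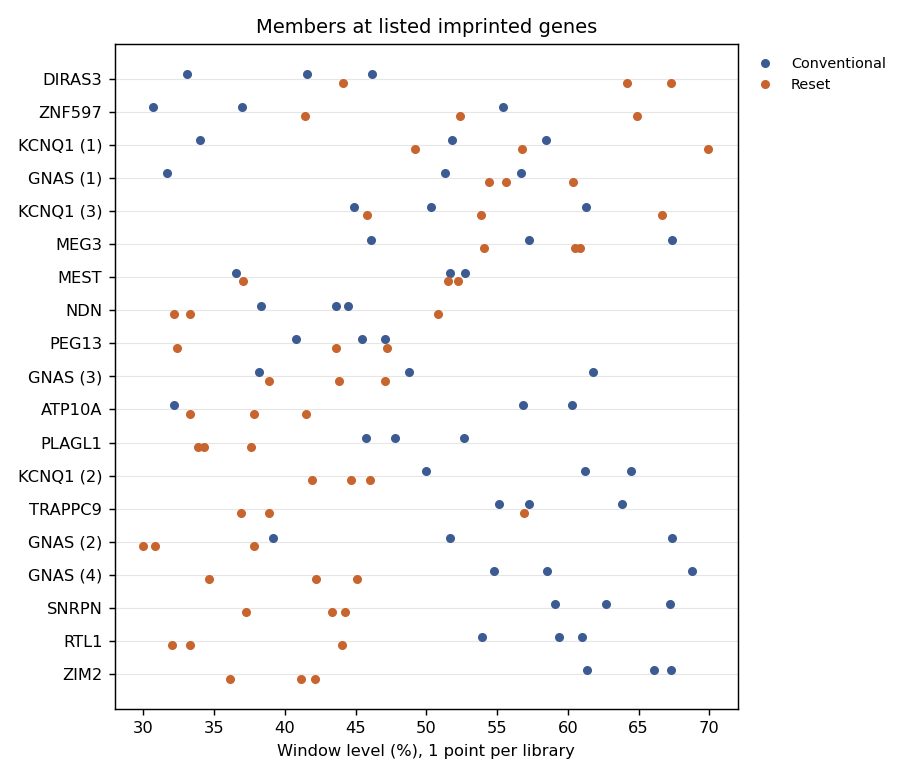
Methylation level (x axis, %) of the 19 members at listed imprinted genes (rows, ordered by the difference between the states), 1 point per library. The states overlap at most windows, the Reset points lie right of most Conventional points at DIRAS3, and all 3 Reset points lie left of the Conventional points at 7 windows, ZIM2, RTL1 and SNRPN among them.

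Members also lay in the HOX clusters, whose genes encode the homeobox factors that set position along the body axis. Of 345 kept windows at 39 HOX genes, 9 (2.61%) were members, beside 0.445% of all kept windows, while 2 (0.580%) were intermediate in Conventional only. Of these 9, 6 lay in the HOXA cluster. The mean was higher in Reset libraries at 5 of 9, all 3 Reset libraries lay above the Conventional ones at 2 and below them at 1, beside 2.76 and 48.5% of all members and 1.26 and 94.8% of all kept windows. The index of dispersion was lower in Reset libraries at 8 of 9, beside 89.8% of all members and 47.4% of all kept windows. The window in HOXA3 and HOXA5 (chr7:27180001-27181000) was at 36.1, 31.0 and 35.1% in Conventional and 51.2, 52.2 and 51.2% in Reset libraries. One window in HOXA9 (chr7:27207001-27208000) was also higher, at 34.1% ± 3.56 and 46.5% ± 4.70, whereas another in the same gene (chr7:27202001-27203000, 8 CpGs) was at 60.9, 61.5 and 62.3% in Conventional and 40, 36.6 and 36.4% in Reset libraries. The HOXD3 window (chr2:177002001-177003000) was at 51.4% ± 3.9 and 52.3% ± 6.18, and the HOXB7 window (chr17:46707001-46708000) at 36.9% ± 1.71 and 37.7% ± 4.58.

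The other gene lists held from 0 to 22 members, and with 0.445% of all kept windows as the background, counts of 0 or 1 in lists of so few windows are too small to set these lists apart. Pluripotency genes had 1 of 375 kept windows, within 5 kb of ESRRB, an orphan nuclear receptor gene, in the lncRNA gene ENSG00000258402 (45.7% ± 2.72 in Conventional and 40.2% ± 4.12 in Reset libraries). Genes for the enzymes that write and erase DNA methylation and for proteins that guard imprints had 1 of 504, in DNMT3A, a de novo methyltransferase gene (48.4% ± 8.06 and 42.4% ± 6.58). Germ cell genes had 0 of 565 and oocyte and maternal-effect genes 0 of 238. Clustered protocadherin genes, which code for neuronal adhesion molecules, had 1 of 236. Zinc finger genes had 22 of 7409 (0.297%), and olfactory receptor genes 1 of 671. In each list the windows intermediate in Reset only were far more numerous, as they were over all kept windows (44.4%). There were 121 at pluripotency genes (32.3%) and 3307 at zinc finger genes (44.6%).

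Runs of members were short. Taking members next to each other or with 1 window between them as a run, 2153 members were single and 234 (9.80%) lay in 111 runs, of which 100 were pairs. A kept window that was no member lay just before 1355 of the 2387 members and just after 1315, so many single members had a neighbour that was not scored. The longest run held 4 members over chr1:148927001-148932000, at the pseudogene LSP1P5, with means of 53.5% ± 3.43 in Conventional and 43.1% ± 2.49 in Reset libraries. There were 10 runs of 3, of which the first 9 by position lay at PLD5, at LINC01968, at GRIK2, a kainate receptor gene, at DLL1, a Notch ligand gene, near UNCX, at ENSG00000288107, at RASA3, a Ras GTPase-activating protein gene, at ENSG00000259203 near ONECUT1, and at LRRC75A. The DLL1 run (chr6:170589001-170592000, 136 CpGs) was at 49.8% ± 3.46 in Conventional libraries, and the 3 Reset libraries were within 1 point of each other at 40.5% ± 0.162. The run near ONECUT1 (chr15:53092001-53095000) was the 1 of the 10 runs named here, that of 4 included, with a higher mean in Reset libraries, at 43.7% ± 3.91 and 49.8% ± 6.95. The run near UNCX lies in the first 10 Mb of chromosome 7.

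The members with the largest drops lay close to the limits that the rule sets. The IQGAP2 window (chr5:75819001-75820000), in an intron of a scaffold protein gene, was at 68.1, 69.4 and 68.0% in Conventional and 30, 31.4 and 36.4% in Reset libraries. The other 4 of the 5 members with the largest drop between the states lay in THRA, a thyroid hormone receptor gene, at GCNT1 and PRUNE2, in MRPL32 and nearest to LITAFD. These 5 had Conventional means of 66.1 to 68.5%, Reset means of 31.9 to 33.8% and 9 to 24 CpGs, and 0 of them held a long CpG-dense stretch. In the other direction the ATP8A1 window (chr4:42427001-42428000), in an intron of a phospholipid flippase gene, was at 39.0, 36.7 and 32.9% in Conventional and 65, 59.6 and 63.4% in Reset libraries. Its index of dispersion was 3.48 in Conventional and 0.634 in Reset libraries. The promoter window of the lncRNA gene ENSG00000271788 (chr5:43007001-43008000) was at 37.1, 41.8 and 35.7% against 57.0, 69.9 and 67%. Its 5′ and 3′ parts differed by 62.2 points in Conventional and 0.330 points in Reset libraries, so parts unequal in 1 state were alike in the other. The next members in this order lay nearest to RPIA, nearest to MYEOV and in ROR2, a receptor tyrosine kinase gene, with differences of 24.7, 22.9 and 22 points.

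An index of 1.5 or less in both states was found at 66 of 2384 members (2.77%), and at 162 of 16496 windows intermediate in Conventional only (0.982%), while 30.6% of windows intermediate in Reset only and 27.4% of all kept windows were this even. The median number of calls per CpG was 13.7 at these 66 members and 17.8 over all members, and fewer calls make unequal CpGs harder to see. Of these 66 members, 37 (56.1%) held part of a long CpG-dense stretch and 12 overlapped a coding promoter. The mean was lower in Reset libraries at 48 and higher at 18. Of the 5 with the lowest index, 4 lay in SIM1, a bHLH-PAS transcription factor gene, nearest to SH3BP4, at SUN1 and GET4, and at ZNF597 and NAA60. The SIM1 window (chr6:100897001-100898000, 51 CpGs) was at 61.5, 31.7 and 49.5% in Conventional and 35.8, 52.2 and 57.9% in Reset libraries, a spread that left the states overlapping. The SUN1 and GET4 window (chr7:929001-930000, 73 CpGs), printed above and in the first 10 Mb of chromosome 7, was at 54.5, 64.1 and 56.1% against 51.6, 46.3 and 60%. It had only 5.67 calls per CpG over the 6 libraries, so its index rests on those of its CpGs that had 6 or more calls. The OLIG2 window, chosen after its values were seen and at a gene for a bHLH factor of the neural lineage (chr21:34399001-34400000, 106 CpGs), was at 37.8, 40.9 and 37.2% in Conventional and 60.3, 63.7 and 56.4% in Reset libraries. It was even in both states, with indices of 0.787 and 0.920, and higher in each Reset library than in any Conventional one. An index over 5 in both states was found at 32 members (1.34%, with a median of 25.3 calls per CpG), beside 3.69% of windows intermediate in Conventional only and 0.305% of all kept windows.

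A window could lie close to 50% in every library while its CpGs differed. The 5 members nearest to 50% with the smallest range were in KAZN, at ENSG00000289012, nearest to MC2R, in LEMD2 and in SORCS2, with single libraries between 45.2 and 53.2%. The ENSG00000289012 window (chr20:37229001-37230000) was at 46.3, 47.1 and 50.9% in Conventional and 48.4, 50 and 47.1% in Reset libraries, yet its index of dispersion was 7.24 in Conventional and 1.19 in Reset libraries. Its 5′ and 3′ parts differed by 60.4 points in Conventional and 13.2 points in Reset libraries. The LEMD2 window (chr6:33749001-33750000), in a nuclear envelope gene, was at 46.8, 45.2 and 47.5% against 47.8, 50 and 50%.

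A few members lay in repeated DNA, where reads from several copies can be placed at 1 site. An alignment of 500 bp or more at 95% identity elsewhere in GRCh37 was found for 54 members (2.26%), beside 1.41% of every 20th kept window. Coverage over 3 times the median of the kept windows was found at 19 members (0.796%), beside 0.344% of all kept windows. The 5 members with the most calls per CpG, 94.9 to 113, lay at FRG1BP, at chr20:29634001-29635000, nearest to TPTE, in ZNF595 and at the DUX4L50 pseudogene. Their index of dispersion, where it could be computed, ran from 3.49 to 18.3 in Conventional libraries and from 3.17 to 7.20 in Reset ones, and their levels may mix copies. Without the members that had a copy or such coverage 2320 members were left, with a median difference of -12.2 points and median indices of 3.76 and 1.71.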

How the data were processed

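Cytosine calls from whole-genome bisulfite sequencing of 3 Conventional and 3 Reset H9 libraries were used. The authors trimmed reads with Trim Galore, aligned them to GRCh37 with Bismark and Bowtie2 (Bismark 0.9.0 per the submitters' processing notes, a version that differs from the one in the study's methods) and deposited, for each CpG cytosine, a percent methylation and the counts of methylated and unmethylated calls. Removal of duplicate reads is not given in the sources used here. The deposited counts were used and the deposited percent was not.

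Counts were summed over both strands per 1-kb window with numpy 2.4.6 and pandas 2.3.3, and windows with 30 or more calls in every library were kept. Members and gene lists were chosen with earlier results of these data known. For levels beside members, a quasi-binomial logistic model was fitted to all kept windows, with the dispersion squeezed by limma 3.58.1 and kept at 1 or more. Coverage was tested with edgeR 4.0.16 (TMM, glmQLFTest) and, as an alternative, DESeq2 1.42.0. Both tests used Benjamini-Hochberg adjustment at 0.05 and no covariate. On simulated data, the level test recovered 100.0% of 200 changes of 40 points among 26828 windows, with 3.38% of calls false. The coverage test recovered 95.5% of 200 changes of 2-fold. The coverage simulation assumed a fixed spread between libraries. Its changes were larger than the 1.46-fold coverage of the 35 members in the first 10 Mb of chromosome 7, 0 of which were called. The level simulation had no spread between libraries beyond counting. Its changes were larger than the median difference of 8.91 points at the neighbours under 30% in Conventional libraries. These simulated shares, for levels and for coverage, need not hold for the calls reported here. A gene's members lay in its body or within 5 kb. Promoters ran from 1000 bp before to 500 bp after a start. The index of dispersion used CpGs with 6 or more calls, in windows with 5 or more of them. Copies were found with minimap2 2.31-r1302. Named windows were members at listed imprinted genes, the 10 longest runs, the 5 largest differences in each direction without overlap, the 5 with the most calls per CpG, the 5 evenest in both states and the 5 nearest to 50%. One of these windows is not reported here.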

Additional observations from a re-analysis of the deposited data

How the results depend on the processing

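The alternatives covered the number of members, their dense share, median difference, indices, runs and imprinted count, the neighbours and the coverage. Only the median difference had a sign that could reverse, and it did not. Against limits set for each result, 74 recomputed values stayed the same and 47 moved. The single-CpG, window-part, HOX, motif and promoter values were not recomputed. The number of members depended on the rule: 890 at 50 or more calls, 6558 with a band of 25 to 75% and 693 with a band of 35 to 65%. The share with a CpG-dense stretch was 16.7% at 20 or more calls, 36.2% at 50 or more, 18.3% and 25% with the wider and narrower band, and 54.2% with a shorter definition of the stretch, beside 44.9% of all kept windows, a smaller gap than 21.5 against 11.3%. The median difference was -10.4 points at 50 or more calls, -20.2 points with the wider band and -6.33 points with the narrower. The median index in Conventional libraries was 3.98 at 20 or more calls, 3.60 at 50 or more, 4.04 and 3.64 with the wider and narrower band, 3.91 with the windows shifted by 500 bp, 4.36 for CpGs with 10 or more calls and 3.60 after thinning, which was chosen after seeing the data. In Reset libraries it was 1.80 and 1.63 with the wider and narrower band and 1.88 for CpGs with 10 or more calls. The share of members in runs was 16.5% with the wider and 5.63% with the narrower band, against 9.80%. Imprinted genes had 41 members with the wider band and 4 with the narrower. The omission of members with copies or high coverage, also chosen after seeing the data, gave 2320 members, 21.5% with a dense stretch, -12.2 points and indices of 3.76 and 1.71.

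Of the neighbours, 3472 of 4343 (79.9%) fell and 9.67% rose with windows of 10 or more calls tested, beside 98.2 and 0.414% of all windows, and 619 of 1142 fell with 50 or more. At 50 or more calls 54.2% of neighbours fell and 25.7% rose, with a median difference of -17.4 points, beside 82.9 and 4.11% of all windows tested, and the cause was not tested. DESeq2 called the coverage of 2 members. Leaving out 1 library at a time gave 3005 to 3463 members (5 libraries are fewer to pass), 19.5 to 20.9% with a dense stretch, median differences of -13.7 to -13.1 points, indices of 3.76 to 3.97 and 1.71 to 1.75, 9.37 to 11.4% of members in runs, 20 to 28 members at imprinted genes, 1927 to 1936 neighbours that fell, 351 to 375 that rose and 0 to 2 members called for coverage.

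The labels number the replicates 1 to 3 in each state. Libraries with the same number did not deviate together (correlations of 0.000777, -0.000562 and 0.00189 over windows). Over all kept windows the variance between libraries was a median of 0.954 times the counting variance in Conventional and 1.06 times in Reset libraries. The means of this ratio were 1.39 and 1.56, so counting error was a large part of the deviations but not all of them. The correlations show no shared deviation of levels between libraries of the same number. A pairing that left no mark on the levels would not be seen. With the replicate block 1954 neighbours fell and 376 rose, and 0 members were called for coverage. At 44 calls, the median of the shallowest library of a member, a level of 50% has an exact 95% interval of 34.6 to 65.4%, so membership near 30 or 70% is uncertain.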
